A study of Mus musculus with 12 samples.

Results

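The wide IWR1-high regions are 1347 stretches of chromatin that the study's ATAC-seq comparison listed as more open in mouse 2-cell embryos cultured with IWR1-endo and that span more than 1000 bases. They were selected on the ATAC-seq difference and on width, as every entry of the authors' IWR1-high list whose end minus start was over 1000 bases. They make up 57.4% of the 2345 IWR1-high regions and 1347 of the 3745 regions in both lists. The members were thus chosen by that contrast, and neither their openness nor their width is a finding here. The embryos had NSA(CF-1) mothers and B6SJLF1/J fathers, were taken 16 to 20 h after hCG and were grown with 50 µM IWR1-endo (IWR1 below), an inhibitor of the poly-ADP-ribosyltransferase tankyrase, or with its solvent DMSO, until 46 h after hCG. ATAC-seq used 2 collections of 100 embryos per group and RNA-seq used 4 collections of 10 embryos per group. All embryos shared the cross, the medium and the collection time, and each library pooled embryos, so values describe pools and not single embryos. The region lists hold coordinates only, with no value per library, so the depth behind a region and its agreement between the ATAC-seq collections are unknown.

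ATAC-seq marks DNA that a transposase can reach, and such DNA is found mainly at promoters and enhancers, where nucleosomes are displaced by transcription factors. In the mouse the late 2-cell stage is when the embryo's own genome becomes broadly transcribed while RNA stored in the oocyte is degraded. Tankyrase promotes the degradation of Axin, a scaffold of the complex that destroys beta-catenin, and beta-catenin acts with TCF/LEF factors at Wnt target genes.

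In brief, the wide IWR1-high regions lay at gene starts far more often than the regions that were less open, and most promoter windows inside them were CpG-rich. Genes that started beside them were called higher in IWR1 RNA-seq in 30.4% of cases and lower in 14.9%, against 23.3% and 25.4% of all genes tested. These traits were shared by the rest of the IWR1-high list, called minimum-width below. Of those regions 28.6% held a boundary of a protein-coding gene, against 39.3% of the wide ones. CpG-rich windows made up 68.6% there and 76.5% in the wide regions. Genes that started beside minimum-width regions were higher in 33.5% of cases and lower in 9.26%. The difference between the classes was not tested. Lower calls were more frequent beside wider members, and over 2000 bases the genes' median was no longer above that of all genes.

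**Figure D1:**
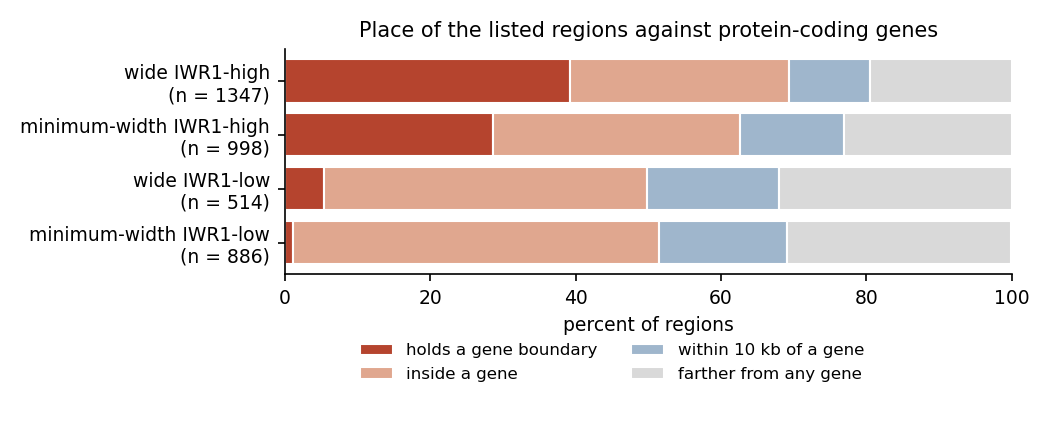
Stacked bars give the percent of regions in each place against protein-coding genes for the wide IWR1-high, minimum-width IWR1-high, wide IWR1-low and minimum-width IWR1-low regions. The part that holds a gene boundary is 39.3% in the wide IWR1-high bar and 5.45% in the wide IWR1-low bar.

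The promoters below are examples from members at genes whose RNA moved, and not typical windows. Zscan4f, Mrpl48 and AF067061 were higher in IWR1 and carry a Dux-type sequence, found in 0.631% of promoter windows inside the members. Isl2 was higher too, and Med11 and Timm13 were lower. Isl2 and Timm13 were CpG-rich as defined further on, with ratios of 0.678 and 0.826. GC content was 44.0% to 54.3% except in Isl2 (67.3%), against a lower quartile of 57.7% over windows inside the members. Each is the 250 bases before a RefSeq start (GRCm38.p6, the same build as mm10) inside a wide IWR1-high region, read 5′ to 3′ on the gene's strand. Capitals mark the letters of the 11 motifs searched on both strands, which are spelled out further on. The windows of Med11 and Timm13 held none of these letters.
Zscan4f promoter, chr7:11397665-11397914, plus strand: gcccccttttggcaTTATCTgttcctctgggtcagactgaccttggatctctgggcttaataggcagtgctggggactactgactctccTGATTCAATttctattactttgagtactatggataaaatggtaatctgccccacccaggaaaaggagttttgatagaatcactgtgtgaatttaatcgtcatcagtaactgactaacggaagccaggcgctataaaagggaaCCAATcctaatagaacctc
Mrpl48 promoter, chr7:100583131-100583380, minus strand: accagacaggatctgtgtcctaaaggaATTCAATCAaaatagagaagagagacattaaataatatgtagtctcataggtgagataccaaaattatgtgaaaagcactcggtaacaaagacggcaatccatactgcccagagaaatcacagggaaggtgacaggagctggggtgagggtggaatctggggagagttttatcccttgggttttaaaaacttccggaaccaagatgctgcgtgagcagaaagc
AF067061 promoter, chr13:120262845-120263094, plus strand: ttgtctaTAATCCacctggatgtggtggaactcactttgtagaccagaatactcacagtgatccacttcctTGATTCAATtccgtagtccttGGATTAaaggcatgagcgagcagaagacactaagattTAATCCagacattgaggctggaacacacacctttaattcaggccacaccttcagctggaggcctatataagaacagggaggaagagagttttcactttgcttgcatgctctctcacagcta
Isl2 promoter, chr9:55540899-55541148, plus strand: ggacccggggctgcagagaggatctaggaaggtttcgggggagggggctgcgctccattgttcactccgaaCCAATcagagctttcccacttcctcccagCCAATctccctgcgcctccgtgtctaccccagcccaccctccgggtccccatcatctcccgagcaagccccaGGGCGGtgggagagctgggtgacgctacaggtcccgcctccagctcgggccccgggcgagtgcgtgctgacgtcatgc
Med11 promoter, chr11:70451668-70451917, plus strand: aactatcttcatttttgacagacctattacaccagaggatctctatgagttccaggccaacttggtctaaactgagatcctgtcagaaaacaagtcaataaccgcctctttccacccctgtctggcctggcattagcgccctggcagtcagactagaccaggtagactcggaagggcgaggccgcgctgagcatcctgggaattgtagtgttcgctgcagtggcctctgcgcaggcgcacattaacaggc
Timm13 promoter, chr10:80900970-80901219, minus strand: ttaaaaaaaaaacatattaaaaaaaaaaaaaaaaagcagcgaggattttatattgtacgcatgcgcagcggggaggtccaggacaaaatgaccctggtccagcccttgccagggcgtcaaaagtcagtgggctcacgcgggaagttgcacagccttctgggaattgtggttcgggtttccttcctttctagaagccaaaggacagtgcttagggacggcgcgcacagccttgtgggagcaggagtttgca

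The wide IWR1-high regions ranged from 1034 to 22298 bases, with a median of 1370 and quartiles of 1155 and 1740 bases, and covered 2106514 bases in all. Of them 552 (41.0%) were wider than 1500 bases, 194 wider than 2000 and 43 wider than 3000. The remaining 998 IWR1-high regions were all exactly 1000 bases long, which are called minimum-width below. The cut therefore fell in a gap: the narrowest members were chr11:116670930-116671964 at 1034 bases and chr7:45786710-45787747 and chr9:108428499-108429536 at 1037 bases each, and the regions just under it were 1000 bases, such as chrX:140505252-140506252. The IWR1-low list held 1400 regions, of which 514 (36.7%) were wide, with a median of 1525.5 bases, and 886 were minimum-width. Coordinates are printed as deposited, on mm10, and no source used here says whether they count from 0 or 1.

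Gene starts were the commonest place of the wide IWR1-high regions. A boundary of 1 of the 21887 annotated protein-coding genes lay inside 530 of the 1347 (39.3%), and a further 404 (30.0%) lay wholly inside a gene, 151 (11.2%) within 10 kb of one and 262 (19.5%) farther away. Of the 998 minimum-width IWR1-high regions 28.6% held such a boundary, of the 514 wide IWR1-low regions 5.45% and of the 886 minimum-width IWR1-low regions 1.13%. Since a wider region meets a boundary more easily, the centres were compared too. The centre lay within 1 kb of a boundary in 41.1% of the wide IWR1-high regions (95% Clopper-Pearson interval 38.5% to 43.8%), in 33.1% of the minimum-width IWR1-high regions (30.2% to 36.1%) and in 5.45% of the wide IWR1-low regions (3.65% to 7.78%), while 2.93% of the bases of the annotated span lie that close. These intervals cover counting error only, and neighbouring regions are not independent.

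The boundaries were starts rather than ends. Among 10583 protein-coding genes whose strand and outermost start are in the RefSeq promoter table, 277 had their start and 25 their end inside a wide IWR1-high region. In the wide IWR1-low regions the counts were 9 starts and 10 ends, so no such lean to starts was seen there. Leaving out chromosome 18, for which no promoter windows were used here, 546 of 1303 wide IWR1-high regions (41.9%) held a start, against 258 of 958 minimum-width IWR1-high regions (26.9%), 19 of 504 wide IWR1-low regions (3.77%) and 7 of 868 minimum-width IWR1-low regions (0.806%). The share did not climb steadily with width: it was 41.4% from 1000 to 1250 bases, 49.8% up to 1500, 38.2% up to 2000, 37.7% up to 3000 and 44.2% above 3000.

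Members with a single start reached farther upstream of it than into the gene. In 378 such regions the median reach was 695 bases upstream (quartiles 539.75 and 960.5) and 586.5 bases downstream (432 and 797), and 57.9% extended farther upstream. In 210 minimum-width IWR1-high regions with 1 start the medians were 543 and 457 bases, and 64.3% extended farther upstream.

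**Figure D2:**
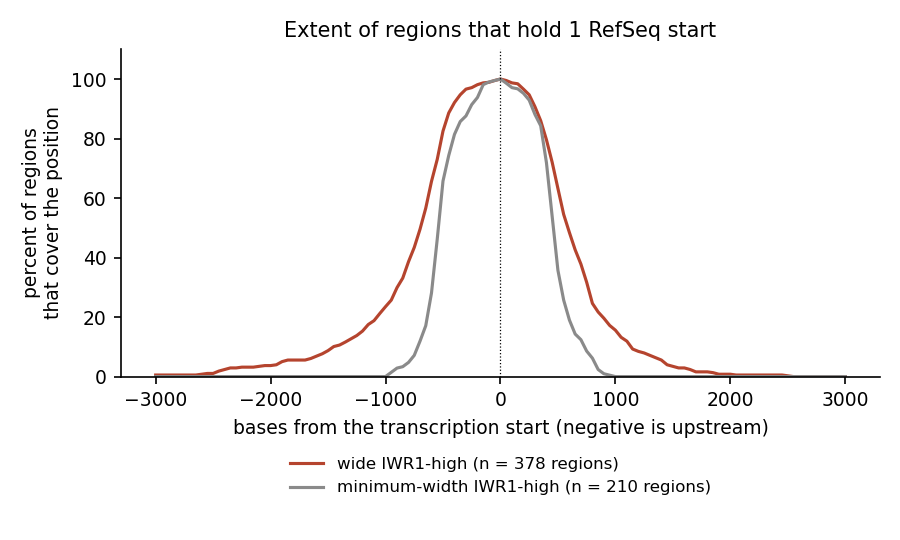
The horizontal axis is the distance in bases from a RefSeq transcription start, negative upstream, and the vertical axis the percent of regions that cover it, for 378 wide and 210 minimum-width IWR1-high regions with 1 start. The curve of the wide regions is broader on both sides, with medians of 695 bases upstream and 586.5 bases downstream.

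Some wide members held starts of genes on opposite strands. Whether such genes are read away from each other, as at a bidirectional promoter, was not examined. Starts of 2 or more genes lay inside 107 of the 546 start-holding members (19.6%), in 106 of them on both strands, against 29 of 258 minimum-width IWR1-high regions (11.2%). For 54 members a gene on each strand passed the filter on low counts in RNA-seq. In 5 of these both genes rose in IWR1, in 5 both fell, in 22 only 1 gene was called and rose, in 10 only 1 was called and fell, and in 11 neither was called. Of all 724 tested genes with a start within 1 kb of a member 30.4% were called higher and 14.9% lower, and of all genes tested 23.3% and 25.4%. Whether paired genes differed from these shares was not tested. The pairs that rose together were U2af1l4 and Psenen, Cdc42se1 and Mllt11, Fancb and Mospd2, Acaa1a and Myd88, and Cntd1 and Coa3. The pairs that fell together were Ddx31 and Gtf3c4, Tacc3 and Tmem129, Sass6 and Trmt13, Zgrf1 and Larp7, and 9430016H08Rik and Tyw5. In a single pair the genes were called in opposite directions: at chr7:140881394-140882837 the mitochondrial deacetylase gene Sirt3 had a log2 fold change of 1.46 (edgeR adjusted p = 0.00175) and the proteasome gene Psmd13 of -1.42 (adjusted p = 0.00632). These pairs were named after their values were seen, to account for the counts.

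Promoters inside the members were rich in CpG, the dinucleotide that is depleted from most of the mouse genome but kept in CpG islands. The 634 RefSeq promoter windows of 540 protein-coding genes that lay wholly inside wide IWR1-high regions (300 bases, 250 before and 50 after the start) had a median GC content of 62.3% and a median of 21 CpGs, against 56.3% and 13 over all 21263 windows of the table. An observed over expected CpG ratio above 0.6 was found in 485 of them (76.5%) and in 47.6% of all windows. In the 242 windows inside minimum-width IWR1-high regions it was 68.6% and in the 21 inside wide IWR1-low regions 71.4%, so the windows in the small low group were CpG-rich as well.

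Most motif shares followed that base composition. The GC box GGGCGG, bound by the Sp1 family, was in 69.6% of windows inside the members and 46.2% of all windows, but among CpG-rich windows in 73.2% and 74.1%. The E-box CACGTG, bound by Myc and its relatives, was in 11.5% and 7.84%, and among CpG-rich windows in 11.5% and 11.4%. The CCAAT box, bound by NF-Y, was in 45.9% and 38.2%, and among CpG-rich windows in 43.5% and 36.5%. Thus only the CCAAT share of these 3 remained apart by more than 5 percentage points among CpG-rich windows. It was alike at minimum-width IWR1-high regions, with 46.3% of all their windows and 44.0% of the CpG-rich ones. TCF/LEF letters CTTTGAT were in 2.05% of windows inside the members and 3.22% of all windows. The shares were 10.6% and 13.6% for the TEAD letters GGAATG, 4.57% and 9.65% for the letters AGATAA of the GATA family, and 4.57% and 6.42% for the Obox and Otx core GGATTA. They were 4.42% and 6.99% for the AP-1 letters TGANTCA, 1.10% and 1.30% for the Nr5a letters TCAAGGNCA, and 2.68% and 2.13% for the B-type SINE box GGTGGCGC. Among CpG-rich windows the gaps were mostly smaller: 1.86% and 2.03% for TCF/LEF, 9.90% and 10.0% for TEAD, and 3.92% and 4.31% for the GATA family. For AP-1 (4.12% and 3.46%) and the SINE box (3.3% and 3.68%) the order turned round. A match is a string of letters and not a site, and windows without a match say nothing of the factor.

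The Dux letters were rare among the members, and the 3 counted genes that carried them were higher. Dux is a homeobox factor that opens early 2-cell genes in the mouse, and its core letters TGATTNAAT, which in the form TGATTCAAT contain the AP-1 letters TGATTCA, were in 4 of 634 windows (0.631%) and in 0.578% of all windows. The 4 windows belong to Zscan4f, Mrpl48, AF067061 and Gm21761, and Gm21761 was not counted in the RNA-seq table. The counted 3 are printed above, in Mrpl48 on the opposite strand. AF067061 and Gm21761 share 265 of the 300 bases of their windows at the same position, so reads of such copies may be split between them. These genes were looked at because of the letters, after values were seen.

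Zscan4f (gene ID 665902) belongs to the Zscan4 family of telomere-elongating DNA-binding proteins, which is expressed in 2-cell embryos. It had 116, 106, 145 and 146 FPKM in IWR1 libraries 5 to 8. In DMSO libraries 1 to 4 it had 9.88, 6.59, 9.95 and 6.37 FPKM. Every IWR1 library was above every DMSO library, and the log2 fold change was 3.77 (SE 0.25, edgeR adjusted p = 4.34e-06). Its start lies in chr7:11397081-11398197, and because the family has near-identical copies the count of this gene is uncertain. Mrpl48 (gene ID 52443), which encodes a protein of the mitochondrial ribosome, had 863, 698, 677 and 632 FPKM in IWR1, against 105, 126, 102 and 69.7 FPKM in DMSO. The groups were again apart, by 2.67 on the log2 scale (SE 0.21, edgeR adjusted p = 8.21e-06). The member there, chr7:100582367-100583556, covers a start inside the gene model (100545779 to 100608301), whose reads can overlap those of Rab6a. AF067061 (gene ID 236546), listed among early 2-cell genes, had 300, 349, 537 and 283 FPKM in IWR1, against 51.6, 69.5, 83.8 and 70.5 FPKM in DMSO (log2 fold change 2.21, SE 0.26, edgeR adjusted p = 3.8e-05). Of all 55 tested genes with the Dux letters in a promoter window 25 were called higher (45.5%) and 8 lower, and of the 52 of them without a wide IWR1-high region over that window 22 were higher (42.3%) and 8 lower, so higher calls were frequent among such genes away from the members too.

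RNA-seq of the genes beside the members was then described, since those libraries played no part in choosing the regions. Levels are given as FPKM, computed here from deposited counts, gene lengths and library totals, and calls come from edgeR's quasi-likelihood test over 14994 genes with Benjamini-Hochberg adjustment at 0.05. Library totals were 17963977 to 32931800 counts in IWR1 and 16606155 to 49672143 in DMSO. Over all genes tested 23.3% were called higher and 25.4% lower in IWR1, with a median log2 fold change of 0.17, so scaled changes are read against that shift. The labels call the collections independent without saying what set them apart, so p-values measure the spread between these collections only.

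Of 803 genes with 1 locus in the table and a start within 1 kb of a wide IWR1-high region, 724 passed the filter (90.2%, against 63.3% of all 1-locus genes), 79 did not, and 19 of these had no count in any library. Among the 724, 220 were called higher in IWR1 (30.4%, 95% Clopper-Pearson interval 27.1% to 33.9%) and 108 lower (14.9%, 12.4% to 17.7%), beside the 23.3% and 25.4% of all genes tested. Their median log2 fold change was 0.55, which is 0.38 above that of all genes. Their median level, 4.21 FPKM, was close to the 4.27 FPKM of all genes tested. As passing the filter can depend on the group where a gene is high, these counts describe the genes that passed and are not given as support for an effect. The intervals on shares of genes cover counting error only. The genes share the same libraries, and some share a region, so they are not independent.

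The same genes separated the libraries of the groups. The median log2 level of the 724 genes relative to all tested genes was 0.065, 0.22, 0.22 and 0.18 in IWR1 libraries 5 to 8, against -0.18, -0.17, -0.23 and -0.16 in DMSO libraries 1 to 4. The IWR1 mean was 0.17 ± 0.073 and the DMSO mean -0.19 ± 0.032 (SD, n = 4 each), and the groups did not overlap. For the 367 genes with a minimum-width IWR1-high region within 1 kb of the start the means were 0.34 ± 0.034 in IWR1 and -0.32 ± 0.091 in DMSO (SD, n = 4 each), a wider gap than for the wide regions. The difference between the region classes was not tested.

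**Figure D3:**
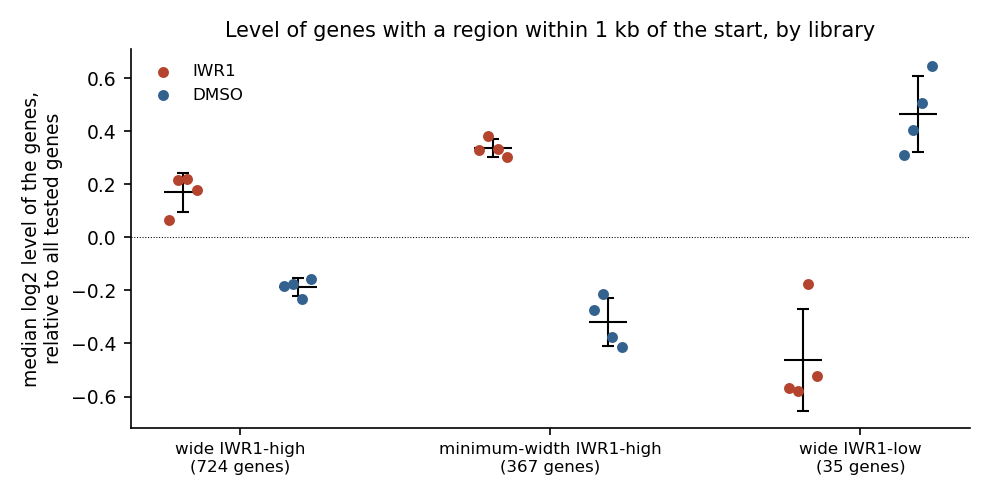
Points are libraries and bars the mean ± SD (n = 4) of the median log2 level of genes with a region within 1 kb of the start, relative to all tested genes, in IWR1 and DMSO. For the 724 genes of the wide IWR1-high regions IWR1 libraries lie between 0.065 and 0.22 and DMSO libraries between -0.23 and -0.16.

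The calls changed with distance both close to the members and far from them. With the start inside a member, 200 of 651 genes were higher (30.7%) and 102 lower (15.7%). With the start outside but within 1 kb, 20 of 73 genes were higher (27.4%) and 6 lower (8.22%). At 1 to 10 kb the shares were 25.3% higher and 22.8% lower of 391 genes, close to the shares over all genes. From 10 to 50 kb they were 19.7% and 28.7% of 1498 genes. From 50 to 200 kb they were 19.5% and 29.0% of 3013 genes, and from 200 to 1000 kb 22.3% and 26.0% of 5083 genes. Beyond 1000 kb they were 27.0% and 22.9% of 4228 genes. Lower calls thus outnumbered higher ones from 10 to 1000 kb, as they did over all genes tested, but not nearer or farther. Members that lay inside a gene but over 1 kb from its start were beside 256 tested genes, of which 81 (31.6%) were higher and 28 (10.9%) lower, at a median level of 1.94 FPKM. Counting every gene within 10 kb of a member, 398 of 1451 (27.4%) were higher and 268 (18.5%) lower, with a median log2 fold change of 0.41.

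**Figure D4:**
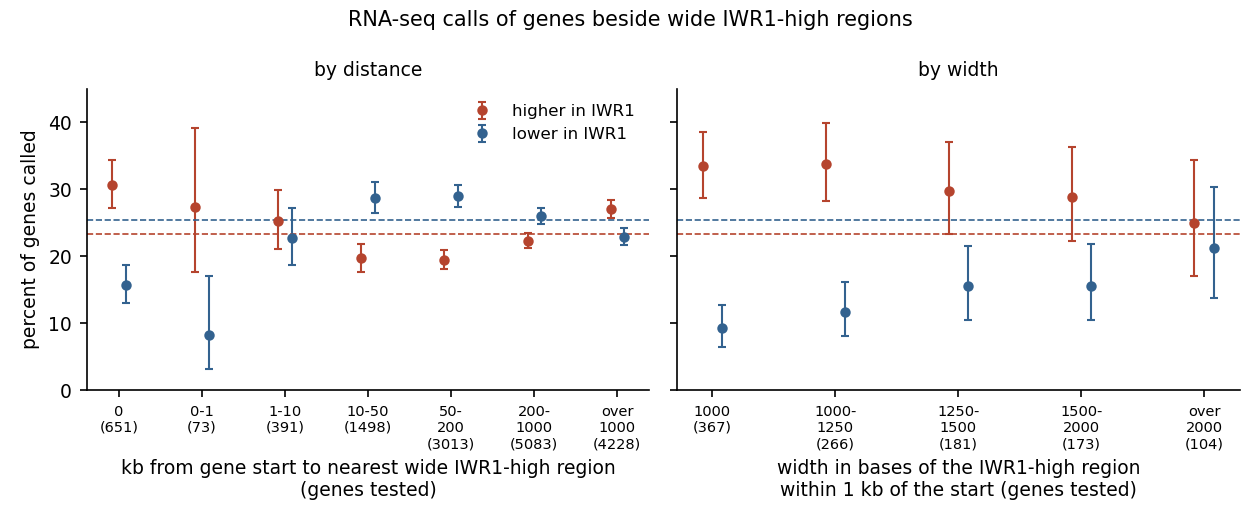
The vertical axis is the percent of tested genes called higher or lower in IWR1, with 95% Clopper-Pearson intervals, by distance in kb from the start to the nearest wide IWR1-high region and by width of the IWR1-high region within 1 kb of the start. Dashed lines are the 23.3% higher and 25.4% lower of all genes, and lower calls are 9.26% at minimum-width regions and 21.2% at regions over 2000 bases. The intervals cover counting error only, and the genes are not independent.

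Lower calls were more frequent beside wider members, and the median change was smallest beside the widest. Beside minimum-width IWR1-high regions 123 of 367 genes (33.5%) were higher and 34 (9.26%) lower, with a median log2 fold change of 0.85. Beside members of 1000 to 1250 bases 33.8% of 266 genes were higher and 11.7% lower (median 0.71). From 1250 to 1500 bases they were 29.8% and 15.5% of 181 genes (median 0.51), and from 1500 to 2000 bases 28.9% and 15.6% of 173 genes (median 0.54). Beside members wider than 2000 bases 26 of 104 genes (25%) were higher and 22 (21.2%) lower, and their median of 0.02 was 0.15 below that of all genes. The share of lower calls thus went up from class to class, although the intervals of neighbouring width classes overlapped. The median level of these genes was 3.05 FPKM at minimum width and between 3.64 and 4.48 FPKM in the wide classes.

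Expression level moved with the calls over all genes, so the members' genes were set beside genes of like level. Tested genes were split into 5 equal groups by mean FPKM. In the highest group, above 25.4 FPKM, 56 of 126 genes at members were higher (44.4%) and 34 lower (27.0%), against 27.1% and 50.0% of all 2988 genes there. In the next group, from 7.31 to 25.4 FPKM, the shares were 36.1% higher and 23.6% lower of 144 genes, against 28.7% and 37.5%. In the lowest group, under 0.80 FPKM, 12.4% of 113 genes were higher and 0.885% lower, against 11.8% and 2.91%. The gap in call shares was thus widest in the highest group. The median log2 fold changes were 0.43 at members and -0.54 over all genes in the highest group, and 0.98 and 0.71 in the lowest, so a gap in the median was seen there as well.

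**Figure D5:**
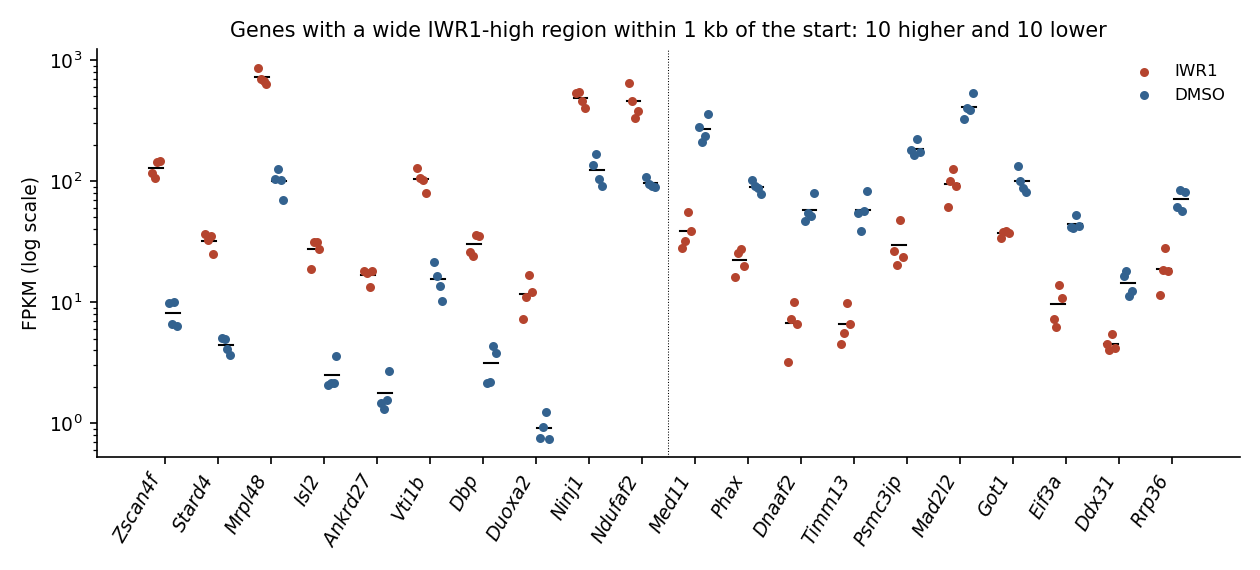
FPKM on a log axis for the 10 higher and 10 lower genes with the smallest adjusted p among those with a wide IWR1-high region within 1 kb of the start. Points are libraries, IWR1 left of DMSO, and dashes their means; the groups of every gene are apart, which was required for a gene to be shown.

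The named genes that rose with a member at the start were the 10 with the smallest adjusted p of 130 eligible genes (at least 5 FPKM in a group, groups apart, a named symbol), so the separation of their groups was a condition of choice. Stard4 (gene ID 170459), which carries cholesterol between membranes, had 36.2, 32.5, 35.2 and 25.1 FPKM in IWR1, against 5.04, 4.92, 4.06 and 3.64 FPKM in DMSO. Its change was 2.70 on the log2 scale (SE 0.21, edgeR adjusted p = 7.86e-06), and a boundary of the gene lies in chr18:33213124-33214510. As no promoter windows were used for chromosome 18, either boundary stood in for the start of Stard4. Vti1b, a SNARE of late endosomes, averaged 105 ± 20.1 FPKM in IWR1 and 15.5 ± 4.74 FPKM in DMSO, and Ankrd27, a regulator of endosomal traffic whose start is 821 bases from chr7:35583269-35585426, averaged 16.7 ± 2.34 and 1.76 ± 0.635 FPKM (SD, n = 4 each). Ninj1, whose protein ruptures the plasma membrane of dying cells, averaged 485 ± 68.4 FPKM in IWR1 and 124 ± 33.6 FPKM in DMSO. Their log2 fold changes were 2.60, 3.04 and 1.81.

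Isl2 (gene ID 104360), a LIM homeobox factor known from motor neurons, had 18.6, 31.4, 31.5 and 27.3 FPKM in IWR1, against 2.05, 2.13, 2.15 and 3.58 FPKM in DMSO, a log2 fold change of 3.25 (SE 0.29, edgeR adjusted p = 1.11e-05). Dbp, a clock-controlled bZIP factor, averaged 30.3 ± 6.14 FPKM in IWR1, against 2.15 to 4.33 FPKM in DMSO. Ndufaf2, an assembly factor of respiratory complex I, averaged 455 ± 137 FPKM in IWR1 and 95.7 ± 8.35 FPKM in DMSO. It shares the member chr13:108157981-108159213 with Ercc8, a gene of transcription-coupled DNA repair on the other strand, whose log2 fold change of 0.21 was not called. Duoxa2, needed to mature the oxidase Duox2, averaged 11.7 ± 3.86 FPKM in IWR1 and 0.915 ± 0.227 FPKM in DMSO (SD, n = 4 for each of these values). Duox2, which starts in the same member, had a log2 fold change of -1.08 that was not called.

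The 10 lower genes were taken likewise from 78 eligible ones. Med11 (gene ID 66172), a subunit of Mediator, had 28.2, 32.2, 55.4 and 38.6 FPKM in IWR1, against 279, 209, 235 and 357 FPKM in DMSO. The fold change was -3.00 on the log2 scale (SE 0.26, edgeR adjusted p = 1.11e-05), although its start lies inside the member chr11:70451346-70452647, which was more open in IWR1. Timm13 (gene ID 30055), a chaperone of mitochondrial protein import, had 4.50, 5.58, 9.85 and 6.58 FPKM in IWR1, against 54.5, 38.6, 56.1 and 82.7 FPKM in DMSO. All its IWR1 values were below 10 FPKM, and the log2 fold change was -3.34 (SE 0.32). Eif3a, a subunit of a translation initiation factor, averaged 9.54 ± 3.46 FPKM in IWR1 and 44.5 ± 5.42 FPKM in DMSO. Phax, an export adaptor of small nuclear RNA, averaged 22.2 ± 5.13 and 90.0 ± 9.46 FPKM, and Rrp36, a ribosomal RNA processing factor, 18.9 ± 6.77 and 70.7 ± 14.1 FPKM, in IWR1 and DMSO (SD, n = 4 each). Phax is on chromosome 18 too, so either boundary of the gene stood in for its start.

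Ddx31, a nucleolar helicase, fell by 1.84 on the log2 scale together with Gtf3c4, a subunit of a polymerase III factor that starts in the same member. Mad2l2, a subunit of the translesion polymerase zeta, averaged 94.1 ± 26.4 FPKM in IWR1 and 412 ± 88.0 FPKM in DMSO, and Psmc3ip, which acts in meiotic recombination, averaged 29.3 ± 12.4 and 186 ± 25.8 FPKM (SD, n = 4 each). The other two, Dnaaf2 for dynein arm assembly and Got1 for aspartate metabolism, fell by 3.31 and 1.61 on the log2 scale. The models of Vti1b, Dbp, Ndufaf2, Phax, Dnaaf2, Timm13, Psmc3ip, Mad2l2, Eif3a, Tlcd1, Rpl23a, Rpl35a, Rps25, Wnt3, Fzd4, Gsk3b, Ccnd1, Npm2, Tle6, Foxn3, Gm7120, Anxa2, Tfap2a, Tbx3, Snord42b, Sytl3 and Pip5k1c overlap another gene, and since the sources do not state that strand was used in counting, their counts are uncertain. None of the 20 calls was lost when any 1 library was left out.

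Genes at the 5 widest members showed no common direction. The widest, chrY:90763166-90785464 with 22298 bases, covers a boundary of the pseudogene Mid1-ps1, which was not counted. The next, chr13:119595251-119603717 with 8466 bases, lies inside Tmem267 (Gm7120 in the table), which had 13.3, 10.4, 13.9 and 20.7 FPKM in IWR1, against 6.84, 14.3, 14.5 and 13.8 FPKM in DMSO. These values overlap, and the log2 fold change was 0.04 (SE 0.31, edgeR adjusted p = 0.924). chr1:5108926-5114681 with 5755 bases lies inside Atp6v1h, a subunit of the proton pump of lysosomes, which rose to 91.7 ± 7.48 FPKM in IWR1, against 49.8 ± 5.78 FPKM in DMSO (SD, n = 4 each, edgeR adjusted p = 0.00293), and has another member over its start. chr12:99504300-99509939 with 5639 bases lies inside Foxn3, a forkhead repressor, which rose to 26.2, 23.4, 17.4 and 23.3 FPKM in IWR1, against 13.4, 9.98, 13.4 and 7.09 FPKM in DMSO (log2 fold change 0.86, edgeR adjusted p = 0.0137).

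The last of the 5, chr11:78174589-78179669 with 5080 bases, holds the starts of Nek8, a kinase of the cilium, and Tlcd1, a membrane lipid protein, on opposite strands. Tlcd1 averaged 14.2 ± 1.84 FPKM in IWR1 and 6.62 ± 1.89 FPKM in DMSO (SD, n = 4 each, edgeR adjusted p = 0.0132), while Nek8 averaged 0.841 ± 0.364 and 0.605 ± 0.273 FPKM and was not called. At 1266 bases from its edge the ribosomal protein gene Rpl23a fell to 94.8, 104, 181 and 111 FPKM in IWR1, against 466, 395, 601 and 517 FPKM in DMSO (log2 fold change -2.22, edgeR adjusted p = 3.51e-05). Tlcd1 and Rpl23a both reach past the same edge of the member and their models overlap, and they were called in opposite directions. Traf4, a signalling adaptor 9010 bases away, rose by 0.69 on the log2 scale (edgeR adjusted p = 0.0299), a call that was lost without DMSO library 1, 3 or 4 or IWR1 library 6 (highest adjusted p 0.105). Rab34 and Snord42b nearby were not called, with log2 fold changes of -0.01 and -1.21.

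Genes on a list for the Wnt pathway were near members about as often as all tested genes. Of 50 tested genes on a list of Wnt pathway members and beta-catenin targets 5 (10.0%) had a member within 10 kb, against 9.71% of all tested genes. Over the whole list 15 of the 50 were called higher and 7 lower. Of the 5 near a member 3 were called higher and 1 lower. Wnt3, a ligand, had 3.04, 1.74, 6.33 and 2.89 FPKM in IWR1, against 0, 0.254, 0.013 and 0 FPKM in DMSO, with 997 counts over IWR1 and 17 over DMSO. Its DMSO level came almost wholly from library 2, and the log2 fold change was 5.80 (SE 1.12, edgeR adjusted p = 0.00109) with it and 8.79 without it. The receptor gene Fzd4 had 7.49, 9.39, 11.8 and 8.91 FPKM in IWR1, against 4.85, 4.17, 4.13 and 2.65 FPKM in DMSO, with all IWR1 values above all DMSO values (log2 fold change 1.07, SE 0.24, edgeR adjusted p = 0.00293). Fzd5, another receptor, had a log2 fold change of 0.70 and was not called. The list does not hold the whole pathway. The ligand gene Wnt11 is outside it and has a member of 1100 bases at its start. Wnt11 was called higher, with a log2 fold change of 4.34 at a mean of 0.87 FPKM. The Wnt-related genes Dact3 and Draxin, also outside it with members at their starts, were not called (0.31 and -0.48). The target Ccnd1, a G1 cyclin, rose by 1.17 on the log2 scale (edgeR adjusted p = 0.0338), and the kinase Gsk3b of the destruction complex fell by 0.55 (adjusted p = 0.0300). The Ccnd1 call was lost without DMSO library 1, 2 or 3 or IWR1 library 5, 6 or 8 (highest adjusted p 0.111), and the Gsk3b call without DMSO library 1 or 4 or IWR1 library 5, 6 or 7 (highest adjusted p 0.0997).

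Few genes on the lists of embryonic and maternal genes had a member near, and their calls are given beside those of each whole list. Of 31 tested early 2-cell genes linked to Dux and the MERVL repeat, 13 of which were higher and 4 lower, 5 (16.1%) had a member within 10 kb, 3 of them higher and 0 lower: Zscan4f, AF067061 and Tdpoz3, which averaged 17.7 ± 7.71 FPKM in IWR1 and 6.57 ± 2.78 FPKM in DMSO (SD, n = 4 each, adjusted p 0.0138, and 0.0587 without IWR1 library 7). Lmx1a and Zfp809, the other two, had log2 fold changes of 0.50 and -0.12 and were not called. Of 48 tested major genome activation genes 2 (4.17%) had a member within 10 kb and both were lower, as were 44 of the 48 on the list, and neither had a member at its start. Obox3, a homeobox gene, had 241, 295, 538 and 307 FPKM in IWR1, against 537, 505, 397 and 466 FPKM in DMSO. Its groups overlap through IWR1 library 7, and its call (adjusted p 0.0324) was lost without DMSO library 1, 2, 3 or 4 or IWR1 library 5, 6 or 8 (highest adjusted p 0.104). Of 47 tested maternal transcripts, 25 of which were higher and 4 lower, 4 (8.51%) had a member near. Npm2, an oocyte histone chaperone with a member inside the gene, rose to 654, 587, 419 and 423 FPKM in IWR1, against 129, 122, 114 and 84.9 FPKM in DMSO (log2 fold change 2.05, edgeR adjusted p = 2.34e-05), while Kit, Mos and Tle6, with members at their starts, had log2 fold changes of 0.21, 0.55 and 0.00 and were not called.

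All 7 ribosomal protein genes with a member within 10 kb were lower, and 75 of the 76 tested on that list were lower in any case. None had a member within 1 kb of its start. Rpl35a, for instance, which encodes a protein of the large ribosomal subunit, had 35.0, 43.6, 40.7 and 45.3 FPKM in IWR1, against 153, 121, 172 and 142 FPKM in DMSO, with a member 797 bases from the gene. All its IWR1 values were below all its DMSO values (log2 fold change -2.04, SE 0.21, edgeR adjusted p = 1.92e-05). Of 34 tested pluripotency and first-lineage factors, 8 of which were higher and 10 lower, 4 had a member at the start. Elf3, an epithelial ETS factor, rose to 9.91 ± 2.63 FPKM in IWR1, against 3.04 ± 0.930 FPKM in DMSO (SD, n = 4 each, edgeR adjusted p = 0.00145), and Id3, Tbx3 and Tfap2a were not called, with log2 fold changes of 0.30, -0.15 and 1.35. Of 27 tested simple epithelial and cytoskeletal genes, 18 of which were higher and 1 lower, 2 were near a member. Anxa2, a membrane-binding annexin with a member over its start, had 35.0, 28.2, 25.2 and 20.3 FPKM in IWR1, against 5.22, 5.94, 2.62 and 6.58 FPKM in DMSO (log2 fold change 2.26, edgeR adjusted p = 9.47e-05), while Cldn6 was not called (0.19). Of 12 tested histone genes, 1 of which was higher and 4 lower, only H3f3b was near. Its log2 fold change was -0.47 (edgeR adjusted p 0.0355). That call was lost without DMSO library 1 or 3 or IWR1 library 6, 7 or 8 (highest adjusted p 0.102). The lists were chosen with earlier results of these data known, so their counts are a description.

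Some markers of the labelled stage and of other cells moved between the groups as well. All 12 listed oocyte and early embryo markers had at least 1 FPKM in every library, and their summed level was 4910 to 7050 FPKM in IWR1 and 1590 to 2530 FPKM in DMSO. Of 9 cumulus and granulosa markers 1 reached 1 FPKM in every library, with summed levels of 6.11 to 12.4 FPKM in IWR1 and 2.43 to 4.95 FPKM in DMSO and no count of Amh in either group. The 4 sperm markers summed to 11.1 to 24.5 FPKM in IWR1 and 0.295 to 1.82 FPKM in DMSO, the 4 later embryo markers to 20.7 to 33.6 and 5.05 to 10.6 FPKM, and the 3 blood markers had no count. The sums can rest on a few genes, and not every marker was called. Of the oocyte and early embryo markers 8 were called higher and 1, Zp3, lower. Of the cumulus and granulosa markers 1 was higher, of the sperm markers 3 and of the later embryo markers 1, and none of these was lower. Over all genes tested 23.3% were higher and 25.4% lower. The part of these shifts in the calls beside the members was not tested. In pooled embryos, less RNA per embryo and fewer embryos that carry it cannot be told apart.

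The members were spread over all chromosomes but not evenly. Chromosome 11 held 144 of them (10.7%, with 7.35% of protein-coding genes), and per 100 protein-coding genes the counts ran from 10.2 on chromosome 15 to 2.48 on chromosome X and 0.391 on chromosome Y. The wide IWR1-low regions were placed otherwise, with 37 on chromosome X (3.83 per 100 genes) and 35 on chromosome 11 (2.18). The median gap from a member to the next was 213 kb, and 126 (9.35%) had another within 10 kb. Members were found in 754 windows of 1 Mb.

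The window with the most members, 14, was the gene-dense stretch of chromosome 7 from 45000001 to 46000000, with 67 protein-coding genes. Of 26 tested genes within 10 kb of a member there 3 were higher and 8 lower, and of all 56 tested genes in the window 7 and 16. The 3 higher genes were Dbp, the polarity gene Lin7b and Dkkl1, a Dickkopf-like gene, which averaged 151 ± 13.5 FPKM in IWR1 and 20.9 ± 9.96 FPKM in DMSO (SD, n = 4 each, edgeR adjusted p = 3.78e-05). Rpl13a and the stress-response phosphatase regulator Ppp1r15a, with log2 fold changes of -1.72 and -2.46, were among the lower genes. On chromosome 17 from 6000001 to 7000000, 13 members lay among only 16 protein-coding genes, which include copies of Dynlt1, a dynein light chain, and of Tmem181. Of 8 tested genes within 10 kb 3 were higher and 1 lower, and of all 13 tested genes in the window 5 and 2. Dynlt1a, Dynlt1b and Tmem181a were higher, by 3.18, 1.34 and 1.37 on the log2 scale, and reads from these copies may be shared, while Tagap1 fell by 0.88. On chromosome 19 from 5000001 to 6000000, 11 members lay among 53 protein-coding genes. Of 15 tested genes within 10 kb 3 were higher and 4 lower, and of all 42 tested genes in the window 8 and 12. The 3 windows, chosen for their number of members, thus held genes called in both directions, as did all genes tested (23.3% higher and 25.4% lower). Of all tested genes 4 had 3 or more members within 10 kb: B020031M17Rik, which averaged 104 ± 36.8 FPKM in IWR1 and 40.1 ± 10.8 FPKM in DMSO (SD, n = 4 each, edgeR adjusted p = 0.00582), and Sytl3, Prr12 and Pip5k1c, which were not called.

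Few genes of small structural RNAs overlapped the members. Of 408 annotated tRNA genes 6 did, against 5 for the minimum-width IWR1-high and 0 for the wide IWR1-low regions. Of 1228 annotated microRNA genes 6 did, among them Mir210, a microRNA known from the response to low oxygen, and of 1340 snoRNA genes 3 did.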

How the data were processed

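ATAC-seq regions were used as the coordinates in the deposited lists of the authors. Those lists carry no count, signal or score per region, and no source used here says how regions were selected, pooled or shifted. RNA-seq used the gene counts the authors deposited for 4 IWR1 and 4 DMSO collections. Per the submitters' processing notes, which give no roles, tools included STAR 2.5.1b, Bowtie2 2.2.6, featureCounts 1.5.0-p1, cutadapt 1.11, MACS2 and DESeq2, with build mm10. A further 16 per-library columns were not used. FPKM was computed here from the deposited counts, gene lengths and library totals. Tests used edgeR 4.0.16 in R 4.3.3 (TMM, low-count filter, quasi-likelihood, Benjamini-Hochberg at 0.05), checked on simulated counts, with DESeq2 1.42.0 as an alternative. Regions were joined to genes by gene ID (99.6% of entries matched) on the RefSeq GRCm38.p6 annotation. A gene's start came from the RefSeq promoter table (590 of 724 genes) or, failing that, from either boundary. Promoters of chromosome 18 were not used here. Named genes were the 10 higher and 10 lower with the smallest adjusted p among genes with a region within 1 kb of the start, at least 5 FPKM in a group and groups apart, plus list members within 10 kb, genes at the 5 widest regions and genes with 3 or more regions. The members, lists and rules were chosen with earlier results of these data known. Python 3.11.15, pandas 2.3.3, NumPy 2.4.6, SciPy 1.17.1 and Matplotlib 3.10.9 were used. Of the genes these rules name, 1 is not reported here.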

Additional observations from a re-analysis of the deposited data

Results flagged for a closer look

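Of 122 groups of 4 libraries, 10 had a library whose gap to its nearest neighbour exceeded Dixon's 95% critical value for the share of the range, where chance flags about 1 in 20. In IWR1, library 7 stood apart for Ankrd27 at 13.2 FPKM (others 17.5 to 18) and for B020031M17Rik at 159 FPKM (83.0 to 89.0). It also stood apart in the median log2 level of genes that start within 1 kb of a wide IWR1-low region, at -0.177 (others -0.581 to -0.522). IWR1 library 5 was low in the median level of genes within 10 kb of a wide IWR1-high region, at 0.019 (0.124 to 0.145), and still above every DMSO library. In DMSO, library 1 was low for Gm7120 at 6.84 FPKM (13.8 to 14.5). DMSO library 2 was high for Wnt3 at 0.254 FPKM (0 to 0.013) and for Prr12 at 0.268 FPKM (0.205 to 0.215). DMSO library 3 was high for Eif3a at 52.6 FPKM (41.2 to 42.9). DMSO library 4 was high for Isl2 at 3.58 FPKM (2.05 to 2.15) and for Rps25 at 1630 FPKM (1090 to 1170).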

How the results depend on the processing

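For genes with a start within 1 kb of a wide IWR1-high region, scaling by library totals alone gave 34.5% higher and 11.9% lower (all genes 27.1% and 21.6%), DESeq2 35.5% higher (all genes 27.5%), and no filter a median of 0.253 above all genes. For genes within 10 kb the same settings gave 31.8% and 14.9%, 32.4%, and, with no filter, 23.0% higher, 15.0% lower (all genes 18.1% and 18.7%) and 0.145. A distance of 1 kb gave 30.2%, 14.6% and 0.390, and 50 kb gave 23.0%, 23.9% and 0.0151. Over 1500 bases the medians were 0.111 (start) and 0.0396 (10 kb). Over 2000 bases the start values were 25%, 21.2% and -0.151 and the 10 kb values 20.1%, 22.4% and -0.167, so both medians reversed; the cause was not tested. The share of regions near a gene was 89.3% within 10 kb, 78.7% within 1 kb, 97.8% within 50 kb and 80.5% for protein-coding genes. In promoters of regions over 2000 bases the GC box share was 82.6% and the CCAAT share 51.2%. Leaving out 1 library gave 27.0% to 30.5% higher and 12.2% to 14.4% lower at starts (medians 0.320 to 0.403), 23.7% to 26.5% and 15.5% to 17.3% within 10 kb (0.204 to 0.249), and 2940 to 3450 higher and 3438 to 3676 lower over all genes (19.0% to 22.5% and 22.4% to 23.5%). The all-gene median was 0.17, and 0.345 with library totals alone. Of 41 called named genes 6 lost the call under some setting (Traf4, Gsk3b, Ccnd1, H3f3b, Tdpoz3 and Obox3), and no call turned to the other direction. Among the named genes that were not called, some small log2 fold changes changed sign between settings. That of Gm7120, for instance, was 0.0406 in the main fit and -0.179 without DMSO library 1. No paired analysis was possible because the labels number both RNA-seq groups 1 to 4 while the IWR1 columns are numbered 5 to 8, so which IWR1 column belongs to which labelled sample is unknown. The ATAC-seq lists hold no value per sample to pair. The central 500 bases of the regions were not examined, since no genome of the files' build was used here. Region calls carry no depth here.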
